A study of Mus musculus with 9 samples.

Results

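The *Hox* genes of adult mouse knee synovium were read cell type by cell type in single-cell RNA sequencing data. All symbols of the form *Hoxa*, *Hoxb*, *Hoxc* or *Hoxd* followed by a number were taken, which gave 39 genes on 40 of the 54534 rows of the gene list, since *Hoxd4* is listed under a pair of identifiers. Names alone decided which genes entered, although the list was chosen with earlier results of these data known.

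*Hox* genes encode homeodomain transcription factors that lie in 4 clusters and are numbered by paralog group, 1 to 13, along each cluster. In the embryo the anterior paralogs (groups 1 to 4) are switched on early and towards the head, and the posterior paralogs (groups 9 to 13) later, towards the tail and along the limb from shoulder or hip to digit. Adult connective tissue cells keep part of this pattern, so that fibroblasts from different body sites can be told apart by the *Hox* genes they express. Hox proteins bind DNA together with cofactors of the TALE family of homeodomain proteins, and hindlimb identity is set by *Pitx1* and *Tbx4*.

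Cells came from knees of *Gdf5-Cre;Tom;Pdgfrα-H2BGFP* mice aged 11 to 12 weeks, in which any cell that once had *Gdf5*-driven Cre activity carries tdTomato (Tom) and *Pdgfrα*-expressing cells carry a nuclear green fluorescent protein (GFP). Live Tom+ cells (the *Gdf5* lineage, which arises from the embryonic joint interzone) and Tom-GFP+ cells (*Pdgfrα*-expressing cells outside that lineage) were sorted separately. Knees were in steady state, or were taken at day 6 after an operation in which the joint was opened and the cartilage of the trochlear groove was scratched through its full thickness. There were 2 Tom+ and 1 Tom-GFP+ steady-state libraries, and 4 Tom+ and 2 Tom-GFP+ injured libraries. Each held the sorted cells of 1 mouse. The study describes the mice of the Tom-GFP+ libraries as matched to those of the Tom+ libraries, and the labels do not say which libraries belong together, so libraries of both sorts may not be independent. The Tom-GFP+ gate asks for *Pdgfrα* promoter activity, although 11 immune cells were found in Tom-GFP+ injured library 2.

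Values are unique molecular identifiers (UMIs, each standing for 1 captured RNA molecule read at its 5' end, so that counts do not grow with transcript length), summed over the cells of a class within a library and given as counts per 1000000 UMIs of that sum (CPM). Of 5161 barcodes, 4788 were kept, and libraries held 2866464 to 15033902 UMIs. In Tom-GFP+ injured library 2, 65.3% of barcodes were kept, the lowest share of the 9. The reporter transcript followed the sort: in sublining fibroblasts *tdTom* was at 298 to 678 CPM in the 6 Tom+ libraries and 1.60 to 6.1 in the 3 Tom-GFP+ libraries. Classes were set by marker genes, none of them a *Hox* gene: 2105 *Thy1*+ or *Cd34*+ sublining fibroblasts, of which 473 were *Dpp4*+, 614 fibroblast-like synoviocytes of the lining (FLS), 88 *Prg4*+ *Clic5*-low cells, 653 *Lrrc15*+ fibroblasts found in injured libraries alone, 112 tenocyte-lineage, 145 osteoblast-lineage, 60 chondrocyte-lineage, 87 mural (vessel wall) and 92 immune cells. A gene was called on in a class where its median over libraries was at least 10 CPM with a UMI in every library. Levels per class are sums, so fewer expressing cells and less RNA per cell cannot be told apart.

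The stromal cells of the adult knee carried a posterior *Hox* code led by genes of the *Hoxa* and *Hoxc* clusters. At 10 CPM the *Hoxd* cluster added *Hoxd8* in FLS and *Prg4*+ *Clic5*-low cells and *Hoxd9* in osteoblast-lineage cells. At 5 CPM *Hoxd8* and *Hoxd9* were on in sublining fibroblasts and FLS, and *Hoxd8* in *Lrrc15*+ fibroblasts. *Hoxa10* or *Hoxc10* had the highest mean in each stromal class, no gene of paralog groups 1 to 4 was on in any class, and no *Hoxb* gene was on in any class. Both statements hold for this gate and threshold: in mural cells *Hoxb2* and *Hoxb4* were on with stricter cell filters or with 1 marker more per class, and *Hoxb2* was on with cells given to the nearest class profile, while at 5 CPM *Hoxc4* was on in FLS. In sublining fibroblasts the 16 genes of groups 9 to 13 summed to 189.6 ± 32.5 CPM (SD, n = 9 libraries), the 11 of groups 5 to 8 to 43.1 ± 8.68 and the 12 of groups 1 to 4 to 8.77 ± 6.59. In FLS the sums were 190.5 ± 19.6, 51.5 ± 9.29 and 10.9 ± 7.57 (n = 8). Immune cells, which come from a lineage outside the limb mesenchyme, had 4.80 ± 5.83 CPM of posterior *Hox* genes (n = 3), and 35 of the 39 genes had no UMI in them.

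The 39 genes can be grouped by their UMIs in kept cells, which came to 15592 in total. *Hoxc10* had 4440, *Hoxa10* 3197, *Hoxc9* 1340 and *Hoxa9* 1276. These 4 genes belong to paralog groups 9 and 10. In the embryonic hindlimb group 10 patterns the thigh segment, group 11 the lower leg and group 13 the foot. A second tier held *Hoxc6* with 845, *Hoxa7* with 731, *Hoxc8* with 717, *Hoxd8* with 562, *Hoxa11* with 510 and *Hoxd9* with 453 UMIs. *Hoxb2* had 375, *Hoxc4* 197, *Hoxc5* 139, *Hoxd10* 133, *Hoxc11* 116, *Hoxa5* 104, *Hoxa3* 91, *Hoxb4* 64 and *Hoxb7* 51. A further 16 genes had 1 to 50 UMIs, among them *Hoxd11* with 30, *Hoxb6* with 29, *Hoxa4* with 28, *Hoxb8* with 26 and *Hoxb9* with 7. *Hoxb1*, *Hoxb13*, *Hoxc12* and *Hoxd12* had none. The genes of group 13, which pattern the digits, reached 27 UMIs for *Hoxa13*, 4 for *Hoxd13* and 2 for *Hoxc13*.

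**Figure D1:**
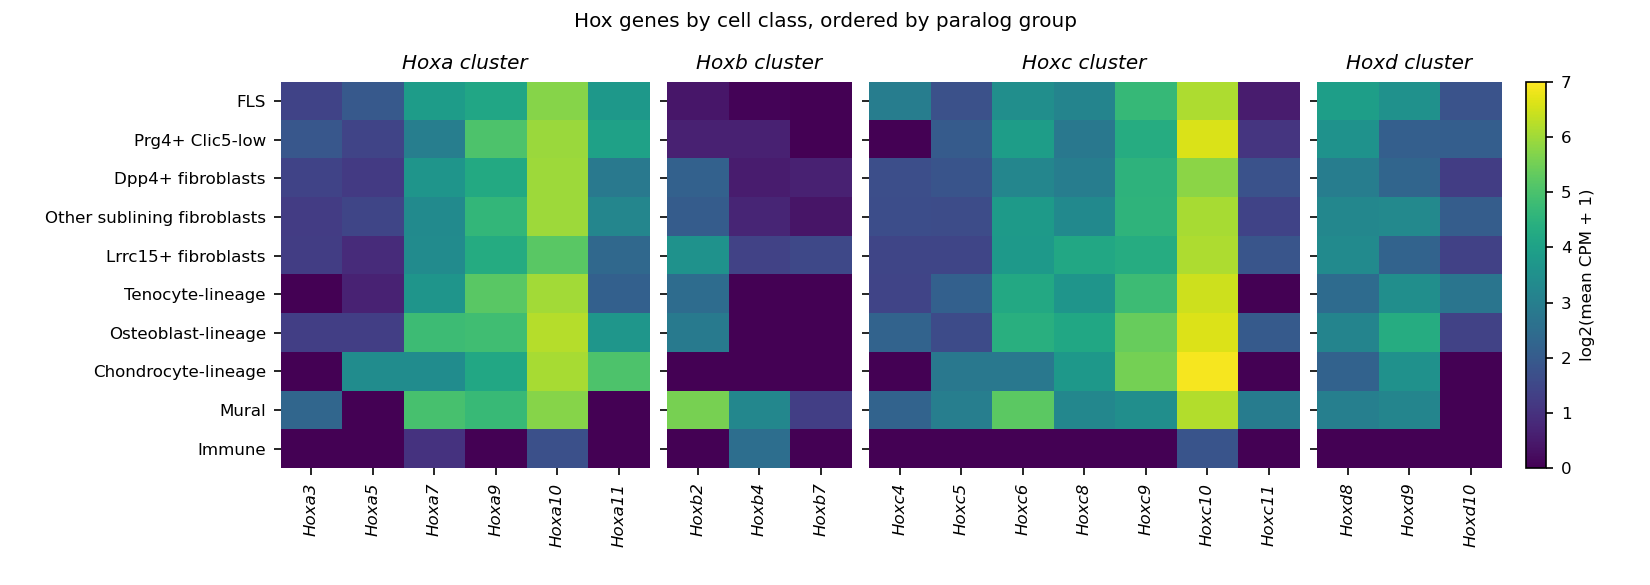
Mean level of each Hox gene with over 50 UMIs in kept cells, ordered by cluster and paralog number (horizontal axis), in 10 cell classes (vertical axis), as log2(mean CPM + 1) over libraries with at least 10 cells of the class. On the colour scale (yellow high, dark blue low) the stromal rows are brightest at paralogs 9 and 10 of clusters a and c, the mural row is also bright at Hoxb2, and the immune row is dark nearly throughout.

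Immune cells, which should lack the posterior *Hox* genes of limb mesenchyme, were set beside the stromal classes as a measure of free RNA in the droplets. After each cell was thinned to 5000 UMIs, 59.4% of sublining fibroblasts and 59.5% of FLS had a UMI of a posterior *Hox* gene, against 2.63% of immune cells. The shares without thinning were 78.7%, 92.4% and 4.35%, at median depths of 9741, 17292 and 8154 UMIs per cell. For *Hoxa10* alone the thinned shares were 25.7% of sublining fibroblasts, 23.4% of FLS and 0.954% of immune cells. For *Hoxc10* they were 26.6%, 27.8% and 1.68%.

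The code of the sublining fibroblasts consisted of 6 genes that were on: *Hoxa7*, *Hoxa9*, *Hoxa10*, *Hoxc6*, *Hoxc9* and *Hoxc10*. Over the 9 libraries *Hoxc10* ran from 42.2 to 73.7 CPM with a median of 66.9, and *Hoxa10* from 32.7 to 80.6 with a median of 65.5. *Hoxa9* ran from 13.7 to 36.1 with a median of 17.2. *Hoxc9* ran from 14.2 to 31.6 with a median of 21.2. *Hoxa10* and *Hoxc10* lay above *Hoxa9* and *Hoxc9* in each of the 9 libraries, with the narrowest gap in Tom+ injured library 1, where *Hoxa10* was at 32.7 and *Hoxc9* at 18.4. *Hoxc6* had a median of 11.9 (9.02 to 17.3) and *Hoxa7* one of 10.2 (5.58 to 11.8), so both sat near the line for being on. At 20 CPM in place of 10, *Hoxa10*, *Hoxc10* and *Hoxc9* stayed on.

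At 10 CPM the synovial lining had the 4 posterior genes of the sublining on, and *Hoxa11* as well. FLS, the cells that secrete lubricin at the joint surface, had 8 genes on, the 6 of the sublining with *Hoxd8* and *Hoxa11* added. Both added genes had FLS medians near the line for being on, and at 5 CPM both were on in sublining fibroblasts too. The sublining class held 3 Tom-GFP+ libraries, with both genes at 5.90 CPM or less, and the FLS class 2. *Hoxc10* ran from 39.1 to 91.4 CPM over 8 FLS libraries (median 70.9) and *Hoxa10* from 37.0 to 67.9 (median 47.3). *Hoxc9* ran from 17.1 to 32.7 (median 23.6) and *Hoxa9* from 11.4 to 23.5 (median 15.8). *Hoxa7* had a median of 12.6 (7.82 to 19.1), *Hoxd8* of 11.5 (2.73 to 31.3), *Hoxc6* of 11.2 (3.91 to 14.7) and *Hoxa11* of 10.8 (3.91 to 20.3). The FLS range overlapped that of the sublining for each of these genes.

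With FLS and sublining sums compared within the same 8 libraries, none of the 10 *Hox* genes tested passed a false discovery rate of 0.05 in edgeR's quasi-likelihood test, adjusted by the method of Benjamini and Hochberg, while 36.6% of all genes tested did. At an unadjusted p under 0.05 there were 2 genes, *Hoxa9* at a log2 fold change of -0.39 (SE 0.154, adjusted p = 0.0625) and *Hoxa7* at 0.49 (SE 0.21, adjusted p = 0.0843), and DESeq2 called 0. *Hoxc10* was at 0.00 (SE 0.146). The median log2 fold change was 0.03 over the 10 *Hox* genes and 0.00 over all genes.

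Several TALE cofactors, limb factors and regulators of *Hox* genes differed between lining and sublining, in a comparison where 36.6% of all genes did. The TALE and noncoding counts lay near that share, the chromatin count under it and the limb factor count above it. No list was tested as a set. Of 7 TALE cofactors tested, 3 were higher in FLS and 0 lower, among them the DNA-binding partner gene *Meis1* at a log2 fold change of 1.29 (edgeR adjusted p = 0.00139) and *Tgif1* at 0.55 (adjusted p = 0.00561). *Meis1* ran from 3.91 to 27.3 CPM in FLS and from 2.58 to 4.81 in sublining fibroblasts. Of 10 limb identity factors tested, 2 were higher and 5 lower in FLS. *Pitx1*, the hindlimb factor, was higher by 0.90 (adjusted p = 4.4e-05) and *Hand2* by 2.05 (adjusted p = 0.000105). *Prrx2*, a homeobox gene of limb mesenchyme, was lower, at -3.62 (adjusted p = 3.01e-10), with 2.73 to 19.6 CPM in FLS against 51.1 to 211.8 in the sublining. *En1* (-1.47), *Prrx1* (-0.75), *Tbx18* (-0.83) and *Meox2* (-0.62) were lower as well. Of 3 noncoding genes of the *Hox* clusters tested, *Hoxa11os*, antisense to *Hoxa11*, was higher in FLS (0.79, adjusted p = 0.0286). Of 16 chromatin regulators of *Hox* genes tested, 0 were higher and 3 lower, the Polycomb subunit gene *Eed* (-0.65), the demethylase gene *Kdm6b* (-0.63) and *Men1* (-0.84).

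*Prg4*+ *Clic5*-low cells were gated by a *Prg4* UMI and fewer FLS markers than the FLS gate asks for, with no limit on *Clic5* itself. These cells were compared in the 4 Tom+ injured libraries, the ones with 10 or more of them. They had *Hoxa9*, *Hoxa10*, *Hoxc6*, *Hoxc10* and *Hoxd8* on. *Hoxc10* stood at 67.0, 80.8, 145 and 93.7 CPM in Tom+ injured libraries 1 to 4, *Hoxa10* at 16.8, 44.9, 65.7 and 117, and *Hoxa9* at 16.8, 31.4, 32.9 and 46.8. The *Hoxa10* values spread over a wider range than in FLS. Against sublining fibroblasts 0 of 8 *Hox* genes passed, where 3.31% of all genes did. At an unadjusted p under 0.05 there was 1, *Hoxa9* at a log2 fold change of 0.80 (edgeR adjusted p = 0.335), and DESeq2 called 0. Among the other lists, *Pitx1* was higher (0.95, adjusted p = 0.0356) and *Prrx2* lower (-1.70, adjusted p = 0.0118).

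Within the sublining, *Dpp4*+ fibroblasts had *Hoxa7*, *Hoxa9*, *Hoxa10*, *Hoxc9* and *Hoxc10* on. Against the other sublining fibroblasts of the same 9 libraries 0 of 6 *Hox* genes passed, with 14.9% of all genes called, 2 *Hox* genes at an unadjusted p under 0.05, and DESeq2 called 0. Those 2 were *Hoxc10* at -0.33 (SE 0.125, edgeR adjusted p = 0.0836) and *Hoxa9* at -0.41 (SE 0.155, adjusted p = 0.0845). The T-box gene *Tbx5* was higher in *Dpp4*+ cells (0.83, adjusted p = 0.019), and *Prrx2* (-0.68) and *Meox2* (-0.66) were lower. Smaller sublining subsets, gated by the markers of the clusters F1 to F6 of the study and pooled over libraries, gave no test. *Hoxa10* was at 34.9 CPM in 52 F1 cells, 64.6 in 337 F2 cells, 62.2 in 45 F3 cells, 60.2 in 329 F4 cells, 138 in 28 F5 cells and 142 in 17 F6 cells. The exact Poisson intervals cover counting error alone and not the spread between libraries, so they do not compare the subsets. For *Hoxa10* they were 23.7 to 49.5 in F1, 56.3 to 73.8 in F2 and 41.94 to 88.75 in F3. In F4 the interval was 52.4 to 68.8, in F5 94.3 to 195 and in F6 84.3 to 225, and those of F3 and F6 overlapped. *Hoxc10* was at 75.3, 60.1, 62.2, 49.5, 155 and 103 in the same order. *Hoxd8* was at 19.1, 4.47, 10.4 and 6.19 in F1 to F4, and its 0 UMIs in F5 and F6 have intervals that reach 15.9 and 29.2.

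The 3 classes of skeletal cells shared *Hoxa10*, *Hoxc9* and *Hoxc10* and differed in how many others were on. Tenocyte-lineage and chondrocyte-lineage cells had these 3 genes on. Osteoblast-lineage cells had 8, adding *Hoxa7*, *Hoxa9*, *Hoxc6*, *Hoxc8* and *Hoxd9*. These classes were small, with 10 to 56 cells in each library used, so that a gene at a low level could miss a UMI by counting alone.

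In osteoblast-lineage cells *Hoxc10* stood at 116 and 89.6 CPM in Tom+ steady-state libraries 1 and 2 and at 66.8 and 118 in Tom+ injured libraries 1 and 2. *Hoxc8*, a central paralog, stood at 6.45, 27.2, 22.3 and 12.5, and *Hoxa7* at 6.45, 38.0, 44.5 and 18.7. *Hoxc8* was above its sublining level in each of the 4 libraries and *Hoxa7* in all but Tom+ steady-state library 1. In that library the 6.45 CPM of both genes stood for very few UMIs. Its order against the sublining rests on them. So do the on calls of both genes, which ask for a UMI in every library. Neither passed: *Hoxc8* was at a log2 fold change of 1.40 (SE 0.482, edgeR adjusted p = 0.108) and *Hoxa7* at 1.22 (SE 0.442, adjusted p = 0.13). In all, 0 of 10 *Hox* genes passed in osteoblast-lineage cells, with 9.17% of all genes called, 4 *Hox* genes at an unadjusted p under 0.05, and DESeq2 called 0. *Prrx2* (0.77), *Shox2* (0.79), *Irx3* (3.02) and the noncoding *Hotairm1* (1.41), which lies in the *Hoxa* cluster, were higher.

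In tenocyte-lineage cells *Hoxc10* ran from 53.4 to 127 CPM over 6 libraries and *Hoxa10* from 21.6 to 117. *Hoxc10* was at a log2 fold change of 0.54 over the sublining (SE 0.176, edgeR adjusted p = 0.0985). In all 0 of 7 genes passed, with 5.06% of all genes called, 1 *Hox* gene at an unadjusted p under 0.05, and DESeq2 called 0. *Prrx2* was higher (0.73). In chondrocyte-lineage cells *Hoxc10* stood at 108, 96.1 and 156 in Tom+ injured libraries 3 and 4 and Tom-GFP+ injured library 1, and *Hoxa11*, which patterns the lower leg, at 18.0, 0 and 77.8. *Hoxa11* was at 1.68 (SE 0.845, adjusted p = 0.222), and 0 of 10 genes passed, with 11.2% of all genes called, 1 *Hox* gene at an unadjusted p under 0.05, and DESeq2 called 0. *Pitx1* (1.91) and *Irx3* (2.94) were higher in chondrocyte-lineage cells, and *Prrx1* (-1.65) and *Prrx2* (-1.68) lower.

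Mural cells of the knee vessels had a posterior code too, but without the hindlimb factor *Pitx1* and with *Hoxb2*. They came from the Tom+ sort alone and were tested in 3 libraries, Tom+ steady-state library 2 with 10 cells and Tom+ injured libraries 1 and 2 with 35 and 22 cells. *Hoxc10* stood at 60.2, 73.2 and 81.6 CPM in that order, *Hoxa10* at 80.2, 33.3 and 43.2, *Hoxa9* at 20.1, 17.7 and 38.4, *Hoxa7* at 40.1, 26.6 and 24.0 and *Hoxc6* at 40.1, 35.5 and 33.6. These 5 genes were on. Central paralogs summed to 99.0 ± 16.4 (SD, n = 3), and posterior paralogs to 174.1 ± 28.3.

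*Hoxb2*, an anterior paralog that patterns the embryonic hindbrain, stood at 0, 99.8 and 38.4 CPM in mural cells. The 3 libraries together gave 53 *Hoxb2* UMIs of 709147 in mural cells, or 74.7 CPM, and 4 of 7881868 in sublining fibroblasts, or 0.508. The 10 mural cells of the steady-state library had 0 *Hoxb2* UMIs, a count that allows up to 60.2 CPM at their depth, so it did not count as on, and it fell under the minimum count of the test. Across mural cells of all libraries 28.7% had a *Hoxb2* UMI, 19.3% after thinning, against 1.16% of sublining fibroblasts and 0.0347% of FLS after thinning. In the annotation *Hoxb2* overlaps the antisense gene *Hoxb3os*. In mural cells *Hoxb3os* stood at 20.1, 22.2 and 19.2 and was higher than in the sublining (edgeR adjusted p = 2.78e-05, 15 UMIs against 1). Whether reads were counted by strand is not given in the sources used here, so the pair cannot be told apart.

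*Hoxa11* went the other way, with 0 UMIs in the mural cells of those 3 libraries and 65 in the sublining cells, which put it at least 1.95-fold lower at a floor of 3 UMIs. *Pitx1* had 0 UMIs against 341, at least 10.2-fold lower, and *Tbx4* 0 against 43, at least 1.29-fold lower. Of 10 *Hox* genes tested in mural cells 0 passed, with 12.8% of all genes called, 3 *Hox* genes at an unadjusted p under 0.05, and DESeq2 called 0. The nearest were *Hoxa11* (edgeR adjusted p = 0.0557) and *Hoxc6* (log2 fold change 1.29, SE 0.455, adjusted p = 0.0579). Without the 10 cells of the steady-state library 3 genes passed, *Hoxa11*, *Hoxb2* and *Hoxc6*. *Pitx1* (adjusted p = 1.46e-05) and *Prrx2*, with 1 UMI against 952, were lower among the limb factors, and *Meox2* (adjusted p = 0.00343) and *Hotairm1* (adjusted p = 0.00258) higher.

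**Figure D2:**
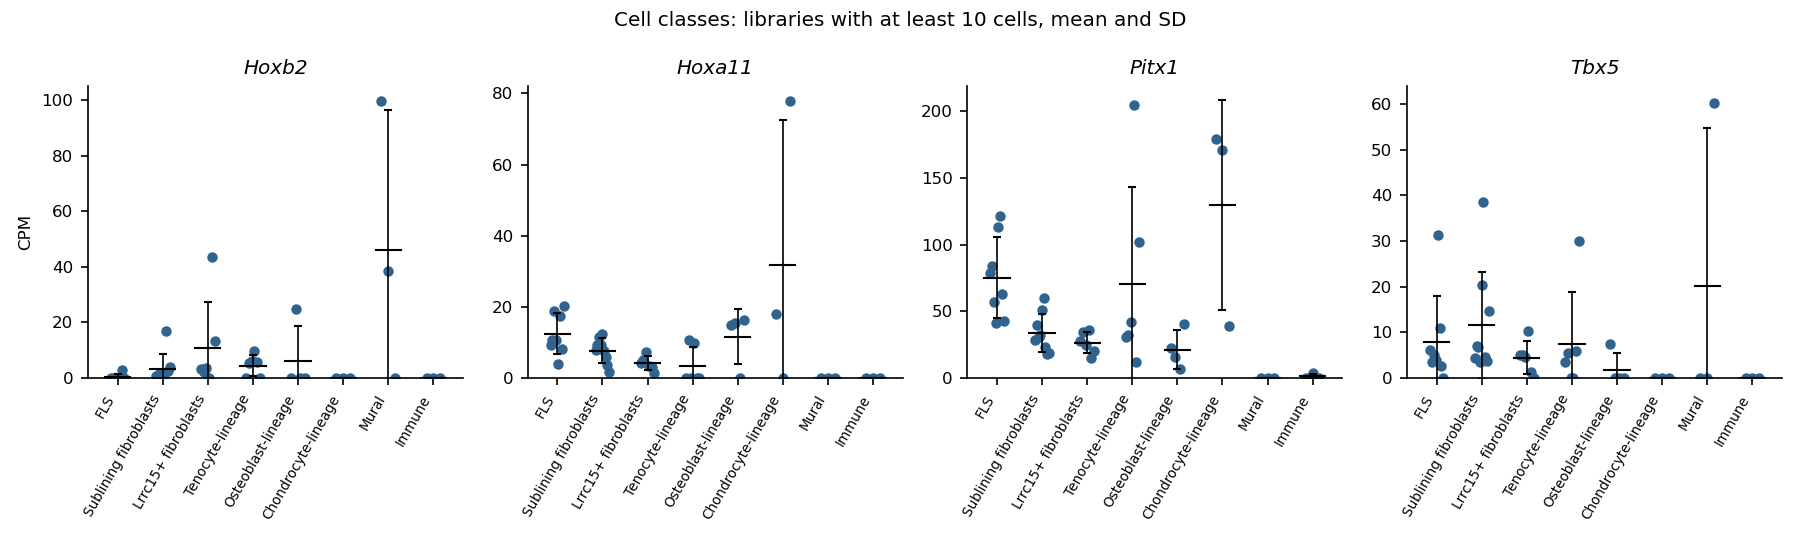
CPM of Hoxb2, Hoxa11, Pitx1 and Tbx5 (vertical axes) in each cell class (horizontal axis); points are libraries with at least 10 cells of the class, bars the mean and SD. Hoxb2 reaches 99.8 in mural cells and stays at 2.73 or less in FLS, while Hoxa11 and Pitx1 are at 0 in all 3 mural libraries.

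The *Lrrc15*+ fibroblasts that appeared after injury differed from the sublining fibroblasts of the same knees in 3 *Hox* genes. *Hoxc8* was higher, and *Hoxa10* and *Hoxa11* were lower, while *Hoxc10*, *Hoxc9*, *Hoxc6* and *Hoxa9* stayed on. In Tom+ injured libraries 1 to 4 and Tom-GFP+ injured libraries 1 and 2, in that order, *Hoxc8* stood at 13.8, 10.2, 13, 4.61, 35.4 and 26.4 CPM in *Lrrc15*+ cells. In sublining fibroblasts the same libraries had 11.9, 2.58, 4.72, 3.94, 11.4 and 11.8. *Hoxc8* was thus higher in *Lrrc15*+ cells in all 6 libraries, and by the most CPM in the Tom-GFP+ pair.

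*Hoxa10* stood at 29.4, 33.5, 44.6, 43.8, 22.8 and 42.5 CPM in *Lrrc15*+ cells against 32.7, 47.2, 54.5, 65.2, 66.2 and 70.6 in sublining fibroblasts. It was lower in *Lrrc15*+ cells in all 6 libraries. *Hoxa11* stood at 4.34, 5.08, 7.43, 3.46, 3.16 and 1.46 against 7.76, 9.21, 11.6, 9.32, 5.90 and 3.74, again lower in all 6. In *Lrrc15*+ cells 3 UMIs stand for 3.46 CPM in Tom+ injured library 4 and 4.39 in Tom-GFP+ injured library 2. *Hoxa11* lay at that floor in the former and under it in the latter, where the sublining value of 3.74 lay under 4.39 too. The companion gene of group 10, *Hoxc10*, stood at 60.6, 75.6, 71.5, 97.97, 66.3 and 45.4 against 51.5, 73.7, 73.0, 67.7, 63.5 and 42.2, and it was higher in 5 of the 6. Whether the 2 genes of group 10 differ in their change was not tested.

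In edgeR's quasi-likelihood test *Hoxc8* was at a log2 fold change of 1.11 (SE 0.232, adjusted p = 0.00597), *Hoxa11* at -0.91 (SE 0.209, adjusted p = 0.0103) and *Hoxa10* at -0.66 (SE 0.155, adjusted p = 0.0118). That was 3 of 10 *Hox* genes tested, where 15.3% of all genes passed (7.16% higher and 8.13% lower), with 4 *Hox* genes at an unadjusted p under 0.05, and DESeq2 called 2. Of the same paralog groups, *Hoxd8* was at 0.01 (adjusted p = 0.992) and *Hoxc10* at 0.13 (adjusted p = 0.367), and *Hoxb8*, *Hoxd10*, *Hoxc11* and *Hoxd11* had too few UMIs to be tested. *Hoxc8* missed the threshold without Tom-GFP+ injured library 1 (0.89, adjusted p = 0.0573) and in the Tom+ libraries alone (0.79, adjusted p = 0.15). *Hoxa10* missed it there as well (-0.40, adjusted p = 0.0722), while *Hoxa11* passed (-0.89, adjusted p = 0.0489). *Hoxa11* was the one of the 3 that DESeq2 did not call (adjusted p = 0.0957). With 1 more marker asked of each class 0 genes passed, and 485 of the 653 *Lrrc15*+ cells lay at the line of 4 of 5 markers. *Lrrc15*+ cells were also deeper, with a median of 19369 UMIs per cell. Their 7 mural markers summed to 132 to 1252 CPM, against 66.8 to 181.8 in the sublining fibroblasts, and were higher in each of the 6 libraries. At the highest sum, in Tom-GFP+ injured library 1, 4 of the 7 markers had a UMI, and most of it was *Acta2* and *Tagln*. The 4 cycling markers of *Lrrc15*+ cells summed to 0 to 292 CPM against 3.23 to 199 and were higher in all but Tom-GFP+ injured library 2. The part of depth and of these markers in the result was not tested.

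**Figure D3:**
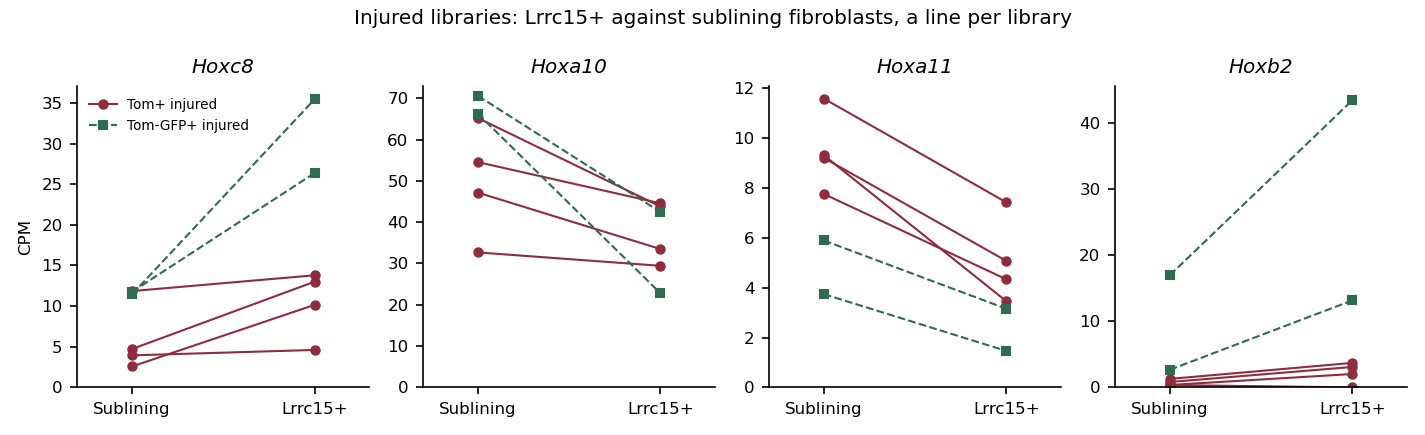
CPM of Hoxc8, Hoxa10, Hoxa11 and Hoxb2 (vertical axes) in sublining and Lrrc15+ fibroblasts of the same injured library (horizontal axis), with 1 line for each of 6 libraries. Every line rises for Hoxc8 and falls for Hoxa10 and Hoxa11, and the Hoxb2 line of Tom-GFP+ injured library 1 climbs from 17 to 43.5.

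Few of the other regulators differed in *Lrrc15*+ cells, in a comparison where 15.3% of all genes did, and no list is set apart by these counts. Of 8 TALE cofactors tested 0 were higher and 2 lower, among them *Meis3* (-0.50, edgeR adjusted p = 0.0157). Of 12 limb factors 0 were higher and 2 lower, *Prrx1* (-0.43) and *Meox2* (-0.48). Of 16 chromatin regulators 1 was higher and 1 lower: *Ezh2*, the Polycomb methyltransferase gene of dividing cells, at 0.50 (adjusted p = 0.0308), and *Ezh1*, its counterpart in resting cells, at -0.89 (adjusted p = 0.0158).

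The embryonic origin of the fibroblasts was compared next. In sublining fibroblasts *Hoxa11* and *Hoxd8* were higher in every Tom+ library than in every Tom-GFP+ library, and *Hoxb2* was lower in every Tom+ library. As reported below, the main edgeR lineage comparisons of sublining fibroblasts called none of these genes. The sublining class pools several subsets, and the study reports that the lineages contributed variably to its fibroblast clusters. The part of subset makeup in these lineage differences was not tested. No upstream window was available for *Hoxb2*. The 250 bases upstream of the RefSeq start of *Hoxa11* and *Hoxd8* are shown, since their Tom+ and Tom-GFP+ libraries did not overlap. They are read 5' to 3' on the strand of the gene in GRCm38.p6, *Hoxa11* from chr6:52245811-52246060 (minus strand) and *Hoxd8* from chr2:74704365-74704614 (plus strand), with any CCAAT box on either strand (CCAAT or ATTGG) in capitals.
Hoxa11: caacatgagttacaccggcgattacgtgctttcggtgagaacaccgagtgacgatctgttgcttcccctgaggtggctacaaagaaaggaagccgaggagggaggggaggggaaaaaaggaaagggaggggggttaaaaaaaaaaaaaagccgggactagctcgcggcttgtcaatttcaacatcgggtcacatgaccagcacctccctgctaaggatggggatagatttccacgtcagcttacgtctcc
Hoxd8: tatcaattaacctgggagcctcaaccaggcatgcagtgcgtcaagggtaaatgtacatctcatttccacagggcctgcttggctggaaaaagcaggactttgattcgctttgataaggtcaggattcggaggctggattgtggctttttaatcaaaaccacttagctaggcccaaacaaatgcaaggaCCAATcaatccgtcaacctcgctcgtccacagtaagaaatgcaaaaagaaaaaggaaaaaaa
A CCAAT box was found once upstream of *Hoxd8* and not upstream of *Hoxa11*, and the letters TGATNNAT, searched on both strands for a TALE and Hox pair, were in neither. Among 32851 RefSeq promoters of this length 33.8% held a CCAAT box and 7.68% TGATNNAT. Among 24 windows of 22 *Hox* genes 14 held a CCAAT box (58.3%) and 4 TGATNNAT (16.7%). A match is a description of the letters alone.

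*Hoxa11*, at chr6:52242106-52245810 on the minus strand, stood at 12.4 and 7.72 CPM in steady-state Tom+ libraries and 7.76, 9.21, 11.6 and 9.32 in injured Tom+ libraries. In the Tom-GFP+ libraries it stood at 1.80 in steady state and 5.90 and 3.74 after injury. *Hoxd8*, at chr2:74704615-74707933 on the plus strand, stood at 12.8 and 6.62, then 9.80, 9.21, 13.7 and 9.32 in the same Tom+ libraries, and at 3.24, 3.82 and 4.81 in the Tom-GFP+ libraries. The groups do not overlap for either gene. The antisense transcript *Hoxa11os* ran from 4.41 to 8.24 in Tom+ and from 0.72 to 3.21 in Tom-GFP+ libraries.

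*Hoxd9* lay beside them, with 14.8 and 14.7 CPM in steady-state Tom+ libraries and 3.27, 8.47, 9.45 and 10.0 after injury, against 2.88, 2.08 and 3.74 in the Tom-GFP+ libraries, so that Tom+ injured library 1 overlapped the Tom-GFP+ range. *Hoxb2* stood at 1.98 and 0.37 in steady-state Tom+ libraries and 0.82, 0.37, 1.29 and 0.36 after injury, and at 3.96, 17 and 2.67 in the Tom-GFP+ libraries. The sorts came closest in Tom+ steady-state library 1 and Tom-GFP+ injured library 2, where 3 UMIs stand for 1.48 and 1.60 CPM. The gap between them, from 1.98 to 2.67, thus rests on few UMIs. *Hoxc8* ran from 2.58 to 11.9 in Tom+ and from 11.4 to 17.6 in Tom-GFP+ libraries. The leading genes showed no such split: *Hoxc10* ran from 51.5 to 73.7 in Tom+ and from 42.2 to 67.3 in Tom-GFP+ libraries, and *Hoxa10* from 32.7 to 80.6 and from 65.9 to 70.6.

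Of 14 *Hox* genes with at least 50 UMIs in sublining cells, 3 were apart in this way, *Hoxa11* and *Hoxd8* higher and *Hoxb2* lower in Tom+, where 2.65% of 11592 genes were apart (0.811% higher and 1.84% lower). The test across all genes did not call them. Averaged over both states, a comparison added after the data were seen, *Hoxa11* was at a log2 difference of 1.73 (SE 0.343, edgeR adjusted p = 0.0637), *Hoxd9* at 1.96 (SE 0.421, adjusted p = 0.0889), *Hoxd8* at 1.47 (SE 0.34, adjusted p = 0.127), *Hoxb2* at -2.76 (SE 0.723, adjusted p = 0.182) and *Hoxc8* at -1.18 (SE 0.397, adjusted p = 0.405). Thus 0 of 14 passed, where 0.546% of all genes did, with 6 *Hox* genes at an unadjusted p under 0.05, and DESeq2 called 0. Without Tom+ injured library 1, 3 passed, *Hoxd9*, *Hoxa11* and *Hoxc8*, and without Tom-GFP+ injured library 2, 0 passed.

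Within injured knees 0 of 14 passed, with 0.0244% of all genes called, 4 *Hox* genes at an unadjusted p under 0.05, and DESeq2 called 0. *Hoxb2* was nearest there, at -3.76 (SE 0.799, edgeR adjusted p = 0.253). In steady state 0 of 14 passed, with 0.0326% of all genes called, 3 at an unadjusted p under 0.05, and DESeq2 called 0, and *Hoxa11* was nearest, at 2.48 (SE 0.586, adjusted p = 0.274). The steady-state comparison had a single Tom-GFP+ library. *Pitx1* was the 1 of 16 limb factors that passed in the average over states, at 1.15 (SE 0.186, adjusted p = 0.0349), with 28.2 to 59.95 CPM in Tom+ and 18.2 to 23.6 in Tom-GFP+ libraries.

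**Figure D4:**
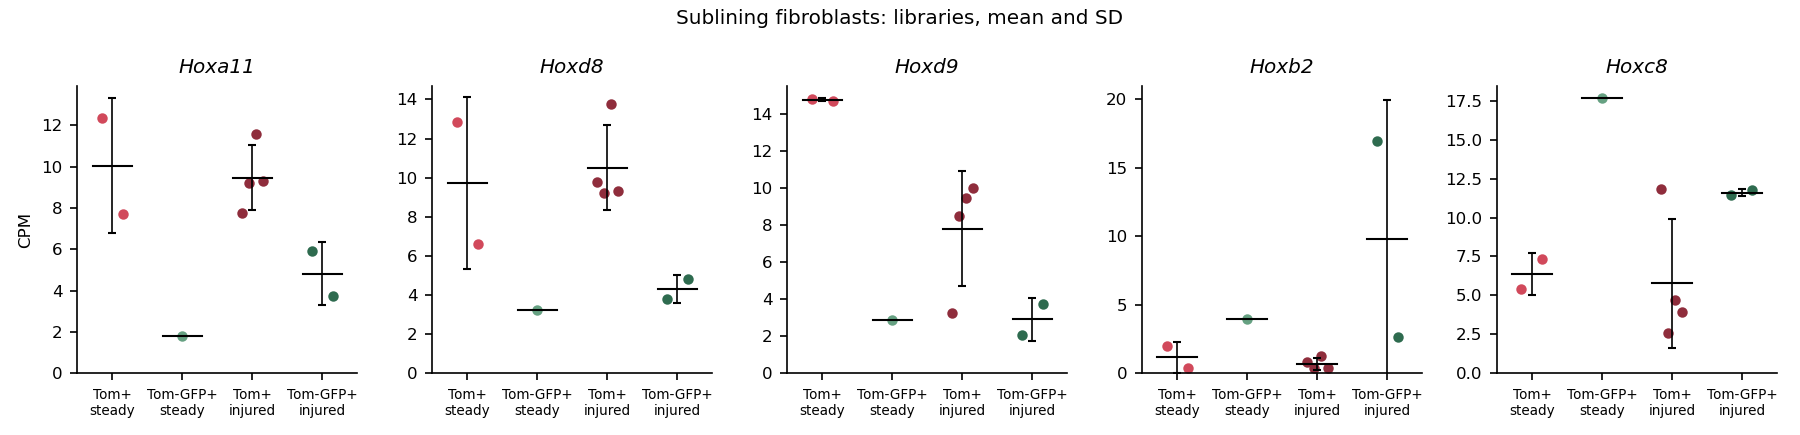
CPM (vertical axis) of Hoxa11, Hoxd8, Hoxd9, Hoxb2 and Hoxc8 in sublining fibroblasts of the 9 libraries, by sort and state (horizontal axis), 1 point per library. Hoxa11 and Hoxd8 lie at 6.62 or above in every Tom+ library and at 5.90 or below in every Tom-GFP+ library.

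In FLS the 2 Tom-GFP+ injured libraries could be set beside the 4 Tom+ ones. *Hoxa11* stood at 9.16, 10.7, 18.8 and 10.8 CPM in Tom+ and at 8.19 and 20.3 in Tom-GFP+ libraries, and *Hoxd8* at 11.6, 9.99, 10.8 and 11.4 against 2.73 and 20.3. Both overlapped. The Tom-GFP+ libraries held 18 and 20 FLS, where 3 UMIs stand for 8.19 and 7.61 CPM. In Tom-GFP+ injured library 1 *Hoxa11* lay at that floor and *Hoxd8* under it, while both lay above it in library 2. The part of counting error in the overlap was not tested. None of 10 *Hox* genes passed in edgeR, with 0.0113% of all genes called, 0 at an unadjusted p under 0.05, and DESeq2 called 0. Whether the lineage difference in the sublining differs from that in FLS was not tested.

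*Hoxb2* and other *Hoxb* genes were found in a share of the Tom-GFP+ cells, in steady state as well as after injury. In *Lrrc15*+ fibroblasts *Hoxb2* stood at 3.10, 2.03, 3.71 and 0 CPM in Tom+ injured libraries 1 to 4 and at 43.5 and 13.2 in Tom-GFP+ injured libraries 1 and 2. Each Tom-GFP+ value was above each Tom+ value. In this comparison, added after the data were seen, *Hoxb2* was lower in Tom+ cells at a log2 difference of -3.60 (SE 0.56, edgeR adjusted p = 0.0404) and *Hoxc8* was at -1.54 (SE 0.336, adjusted p = 0.163). That was 1 of 9 *Hox* genes tested, where 0.373% of all genes passed (0.33% lower in Tom+), with 2 at an unadjusted p under 0.05, and DESeq2 called 1.

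The *Hoxb2* call rested on all but 1 of the libraries: without any of 5 of the 6 in turn it missed the threshold, with adjusted p of 0.0547 without Tom+ injured library 4, 0.101 without library 1, 0.119 without library 3, 0.187 without library 2 and 0.536 without Tom-GFP+ injured library 1. Without Tom-GFP+ injured library 2 it passed (-4.08, adjusted p = 0.0174). The fit takes the 6 libraries as independent although the mice of both sorts were matched, and with the replicate number as a block *Hoxb2* missed the threshold too (-3.55, adjusted p = 0.0552). *Hoxa2*, of the same paralog group, had 1 UMI in *Lrrc15*+ cells. *Hoxb4* stood at 4.56 and 4.39 in the Tom-GFP+ libraries and at 0.77 or 0 in the Tom+ libraries, and *Hoxb7* at 9.47 and 0 against at most 0.93.

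Cell by cell, 62 of 122 *Lrrc15*+ cells (50.8%) in Tom-GFP+ injured library 1 and 6 of 38 (15.8%) in library 2 had a UMI of any *Hoxb* gene. The Tom+ injured libraries had 16 of 257 (6.23%), 3 of 119 (2.52%), 5 of 52 (9.62%) and 0 of 65, which allows a share of up to 4.62%. Thinned to 5000 UMIs per cell, the shares were 21.1% and 6.09% in the Tom-GFP+ libraries and 0 to 2.42% in the Tom+ libraries. In the sublining the shares were 4.62% in the steady-state Tom-GFP+ library and 12.9% and 4.83% in Tom-GFP+ injured libraries 1 and 2. The Tom+ libraries had 0.317% to 2.89%. After thinning the shares were 2.86%, 6.34% and 2.02% in the same order, against 0.137% to 1.56%. Of 614 FLS, 2 had a *Hoxb* UMI. Immune cells had no *Hoxb2* UMI, and their *Hoxb* UMIs were of *Hoxb4*, a gene of blood-forming cells. Only Tom+ injured libraries 3 and 4 and Tom-GFP+ injured library 2 held at least 10 immune cells. Tom-GFP+ injured library 1, where *Hoxb2* was highest, had fewer, so free *Hoxb2* RNA could not be gauged there.

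In Tom-GFP+ injured library 1 the sublining fibroblasts with a *Hoxb* UMI (33 cells) had 28.8 CPM of *Hoxa10*, 66.7 of *Hoxc10* and 30.3 of *Hoxc8*, and the 222 without had 77.4, 62.5 and 5.8. Cells with a *Hoxb* UMI were deeper, at a median of 17136 against 8268.5 UMIs, which chooses them in part, so no test is given. The split was not alike elsewhere. In the sublining of Tom-GFP+ injured library 2, 7 cells with a *Hoxb* UMI had 41.0 of *Hoxa10* and 41.0 of *Hoxc8*, against 72.6 and 9.72 in the 138 without. In the steady-state Tom-GFP+ library 16 such cells had 49.4 and 7.05, against 66.8 and 18.2 in the 330 without, so *Hoxc8* was lower there. In the *Lrrc15*+ cells of Tom-GFP+ injured library 1 the cells with a *Hoxb* UMI had 24.0 of *Hoxa10* and 37.5 of *Hoxc8*, close to the 21.2 and 32.7 of the cells without. The sum of the mural markers was also highest in the *Lrrc15*+ cells of that library, though not through every marker. In sublining fibroblasts the 7 mural markers summed to 176.2 CPM in that library and to 74.5 to 181.8 in the injured Tom+ libraries. In *Lrrc15*+ cells they summed to 1252 CPM in Tom-GFP+ injured library 1 and to 132 in Tom-GFP+ injured library 2, against 608, 379, 715 and 167 in injured Tom+ libraries. Most of the sum was *Acta2* and *Tagln*, while *Myh11*, *Tinagl1* and *Mcam* were at 0 in the *Lrrc15*+ cells of both Tom-GFP+ libraries and *Rgs5* at 0.702 and 2.93. The part of these markers in the *Hoxb2* result was not tested.

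After injury 1 *Hox* gene of the sublining was lower past the threshold. *Hoxa9*, at chr6:52223100-52231089, stood at 36.1 and 28.3 CPM in steady-state Tom+ libraries and at 15.9, 16.6, 13.7 and 17.2 in injured Tom+ libraries. In Tom-GFP+ fibroblasts it stood at 30.2 in steady state and at 15.6 and 25.7 after injury. Every injured library lay below every steady-state library.

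In the Tom+ lineage *Hoxa9* fell by 1.03 on the log2 scale (SE 0.231, edgeR quasi-likelihood adjusted p = 0.0206). It was 1 of 14 *Hox* genes tested, where 11.4% of all genes passed (7.15% lower), a count close to what that share gives, with 3 at an unadjusted p under 0.05, and DESeq2 called 1. The other group 9 genes that could be tested were *Hoxc9* at -0.71 (SE 0.216, adjusted p = 0.0588) and *Hoxd9* at -0.93 (SE 0.389, adjusted p = 0.154), and *Hoxb9* had no UMI in sublining cells. *Hoxa10* was at -0.56 (SE 0.255, adjusted p = 0.186). The median log2 change was -0.43 over the 14 *Hox* genes and 0.01 over all genes.

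*Hoxc9* stood at 28.7 and 31.6 CPM in steady-state Tom+ libraries and 25.6 in the steady-state Tom-GFP+ library, and at 18.4, 19.9, 14.2, 21.9, 21.2 and 16.0 after injury. It was, with *Hoxa9*, 1 of 2 *Hox* genes of 14 whose steady-state and injured libraries did not overlap, where 24.2% of 11592 genes did not overlap (12.6% higher and 11.5% lower after injury), so this count was not above the background. *Hoxa10* stood at 80.6 and 65.5 before and 32.7, 47.2, 54.5 and 65.2 after injury in Tom+ fibroblasts, and at 65.9 before and 66.2 and 70.6 after in Tom-GFP+ fibroblasts. Its Tom+ injured values were all under its Tom+ steady-state values, and its Tom-GFP+ injured values were not under the Tom-GFP+ steady-state value.

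In Tom-GFP+ fibroblasts 0 of 14 *Hox* genes passed in edgeR, where 2.12% of all genes did, with 1 at an unadjusted p under 0.05 (*Hoxa11*, 1.42, adjusted p = 0.274) and 0 by DESeq2. *Hoxa9* was at -0.58 (SE 0.324, adjusted p = 0.403). The difference between the injury effects of both lineages was tested directly and called 0 of 14, where 0.0% of all genes passed, with 0 at an unadjusted p under 0.05, and DESeq2 called 0. For *Hoxa9* that difference was -0.45 (SE 0.404, adjusted p = 1). Averaged over both lineages, a comparison added after the data were seen, *Hoxa9* fell by 0.81 (SE 0.199, adjusted p = 0.0197), 1 of 14 where 17.6% of all genes passed (10.4% lower), with 3 at an unadjusted p under 0.05, and DESeq2 called 0.

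**Figure D5:**
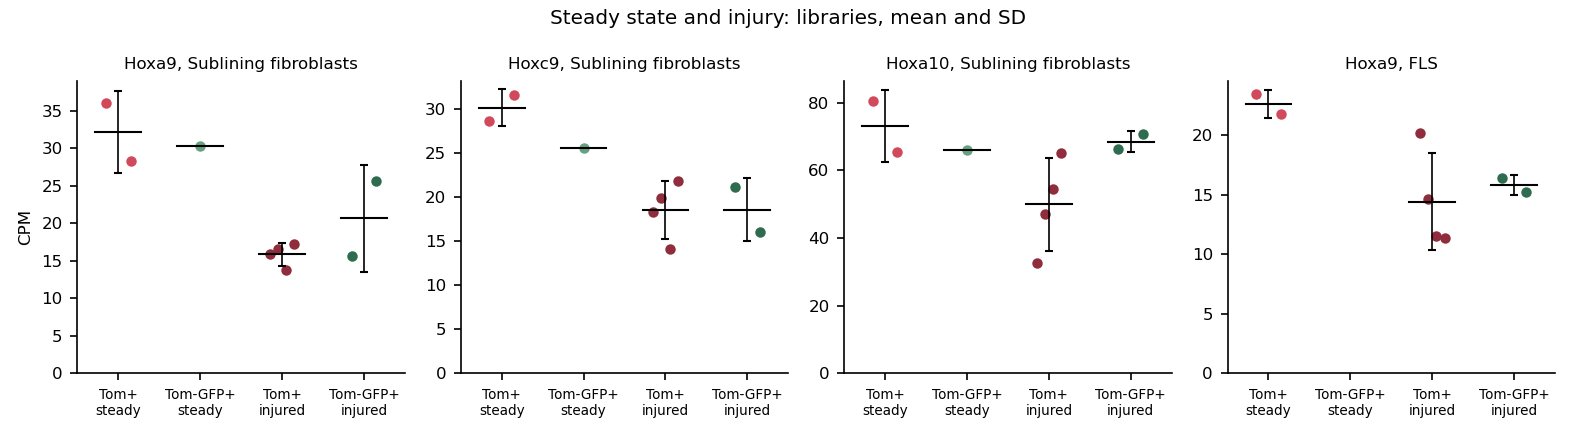
CPM (vertical axes) of Hoxa9, Hoxc9 and Hoxa10 in sublining fibroblasts and of Hoxa9 in FLS, by sort and state (horizontal axis), 1 point per library; no Tom-GFP+ steady-state library had 10 FLS. Sublining Hoxa9 lies at 28.3 to 36.1 in steady state and 13.7 to 25.7 after injury.

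The injury call had narrow support. *Hoxa9* missed the threshold without Tom+ steady-state library 1 (-0.87, edgeR adjusted p = 0.164), without Tom+ steady-state library 2 (-1.24, adjusted p = 0.0594) and without Tom+ injured library 3 (-0.97, adjusted p = 0.0541). The files also came in an older layout of the gene list (the 3 steady-state libraries and Tom+ injured library 1) and a newer layout (the other 5). Within the older layout *Hoxa9* was at 15.9 in the injured and 28.3 and 36.1 in the steady-state Tom+ libraries. With the layout as a block it was at -1.04 (adjusted p = 0.074). Cycling cells moved with injury too: 4 cycling markers summed to 0.988, 1.10 and 1.08 CPM in the steady-state and 3.23 to 199 in the injured sublining libraries. The 7 FLS markers summed to 292 to 531 CPM in the steady-state and 790 to 2949 in the injured sublining libraries, and the 7 mural markers to 7.56 to 19.1 and 66.8 to 181.8, with no overlap in any of the 3 lists. Depth moved as well: the median UMIs per sublining cell were 8080 to 8800 in the steady-state and 8813 to 16290 in the injured libraries. The part of these lists and of depth in the result was not tested.

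In FLS *Hoxa9* stood at 23.5 and 21.8 in steady-state Tom+ libraries and at 20.2, 14.6, 11.6 and 11.4 after injury, a log2 change of -0.61 (SE 0.386, edgeR adjusted p = 0.428). *Hoxc8* was nearest to a call there, with 11.7 and 17.4 before and 1.22, 3.92, 3.61 and 9.66 after injury, at -1.67 (SE 0.767, adjusted p = 0.263). Both genes were lower in each injured library. The steady-state libraries held 17 and 30 FLS, where 3 UMIs stand for 11.7 and 6.53 CPM, so *Hoxc8* in the first lay at that floor. The 7 tenocyte markers summed to 434 and 1672 CPM in these FLS, against 35.0 to 97.7 in those of the injured Tom+ libraries. The part of counting error and of these markers was not tested. None of 10 *Hox* genes passed, where 3.19% of all genes did, with 0 at an unadjusted p under 0.05, and DESeq2 called 0.

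Limb factors of Tom+ sublining fibroblasts changed with injury as well, in a comparison where 11.4% of all genes passed (7.15% lower). Of 16 tested, 1 rose and 6 fell. *Tbx5*, best known from the forelimb, stood at 20.3 and 38.6 CPM in steady-state Tom+ libraries and at 4.5, 7.0, 6.9 and 3.6 after injury, a fall of 2.45 on the log2 scale (SE 0.326, edgeR adjusted p = 0.00225). *Tbx4* fell by 1.59, *Meox2* by 1.28, *Pitx1* by 0.78, *Tbx18* by 0.72 and *Prrx1* by 0.70, and *Prrx2* rose by 1.17. The other lists lay nearer to that share. Of 17 chromatin regulators 0 rose and 3 fell: *Cbx7*, a Polycomb gene, by 3.26 (SE 0.415, adjusted p = 0.00178), *Ezh1* by 1.13 and *Cbx8* by 1.04. *Cbx7* stood at 11.9 and 11.0 in steady state and at 0.41 to 1.47 after injury. Of 9 TALE cofactors *Tgif1* rose (0.80) and 0 fell. In Tom-GFP+ fibroblasts *Meox1* fell (-2.73), and in FLS *Prrx1* (-1.13) and the Polycomb gene *Bmi1* (-1.60) fell.

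Overlapping gene models bear on these values. In GENCODE vM21, 39 of the 40 rows were matched. Of these 15 overlap another gene on the same strand and 14 a gene on the opposite strand. On the same strand *Hoxc5* overlaps *Hoxc6*, *Hoxc8*, *Hoxc9* and *Hoxc10* on chromosome 15. *Hoxa3* likewise overlaps *Hoxa4*, *Hoxa5* and *Hoxa6*, and *Hoxd3* overlaps *Hoxd4*. On the opposite strand *Hoxa11* overlaps *Hoxa11os*, *Hoxd8* overlaps *Hoxd3os1* and *Hoxa7* overlaps *Hoxaas3*. A read in a shared part may have been given to neither or to the wrong gene. The low counts of *Hoxa4*, *Hoxa6* and *Hoxd4* carry this limit too.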

How the data were processed

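Single-cell RNA libraries (10x Genomics 5' kit, version 2) were made by the authors from sorted knee cells. The deposited files hold raw UMI counts per gene and cell; Cell Ranger and GRCm38.p6 are named in the submitters' processing notes, and the strand setting of the counting is not given in the sources used here. Kept cells had 500 genes and 1000 UMIs or more, with mitochondrial UMIs at 10% or less. Classes were gated on marker genes without *Hox* genes; cells in several gates were left out (388 cells), and no doublet caller was run.

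Counts were summed per class and library where at least 10 cells were present and tested across all genes with edgeR 4.0.16 (quasi-likelihood, TMM, low-count filter, Benjamini-Hochberg) in R 4.3.3. Classes were compared within libraries, and state and lineage in 1 fit over 4 groups. DESeq2 1.42.0 was an alternative. The code was tested on simulated data. Shares of cells were thinned by expectation; Python 3.11.15, numpy 2.4.6, pandas 2.3.3, scipy 1.17.1 and matplotlib 3.10.9 were used. Promoters came from RefSeq tables and gene positions from GENCODE vM21. Libraries are single mice, so p-values measure the spread between these libraries; intervals and floors cover counting error only.

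The members, the other lists and the rule for naming genes were chosen with earlier results of these data known. By that rule each member past a false discovery rate of 0.05 is named, with tested members of its paralog group, and values per library are given for members on in the lining, sublining or skeletal classes. Members just short of the threshold, *Hoxb* genes seen cell by cell and the reporter were named after their values were seen. Some members of these lists are not reported here.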

Additional observations from a re-analysis of the deposited data

Results flagged for a closer look

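Among 34 sets of values of the 4 Tom+ injured libraries, 6 had 1 library further from the rest than Dixon's 95% limit for 4 values allows, and chance alone flags about 1 in 20 sets. In sublining fibroblasts *Hoxd8* was highest in library 3 at 13.7 CPM (9.21 to 9.80 in the others) and *Hoxc6* highest in library 1 at 14.3 (9.02 to 9.67). In FLS *Hoxa11* was highest in library 3 at 18.8 (9.16 to 10.8), *Hoxc9* highest in library 4 at 31.8 (17.1 to 18.8) and *Hoxc10* lowest in library 2 at 58.1 (70.2 to 71.8). In *Lrrc15*+ fibroblasts *Hoxc6* was lowest in library 4 at 2.31 (14.2 to 15.8). Libraries 1 to 4 each stood apart at least once.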

How the results depend on the processing

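No *Hox* gene called in the main comparisons changed its direction in another setting. The directions of genes not called were not compared. Of 330 recounts of *Hox* genes called or on, 265 equalled the count reported or stayed within 1.5 times of it and 65 did not. Most comparisons had a reported count of 0, where a recount of 0 was taken as unchanged. The depth-scaled gate and the comparisons of lineage averaged over states, of injury averaged over lineages and of lineage in *Lrrc15*+ cells were chosen after seeing the data; the cause of the changes below was not tested.

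With total UMIs as library size, 1 *Hox* gene was called in FLS (*Hoxa7*) and 1 in mural cells (*Hoxc6*). With no filter on low counts, 3 were called in FLS (*Hoxd11*, *Hoxb2*, *Hoxc4*), 2 in *Dpp4*+ cells, 3 in mural cells, 1 by lineage in injured sublining cells (*Hoxb2*), 2 by lineage in steady state, 6 by lineage averaged over states and 4 by lineage in *Lrrc15*+ cells. With 1 marker more per class, 2 were called in FLS (*Hoxa7*, *Hoxa9*), 1 in *Dpp4*+ cells, 0 in *Lrrc15*+ cells, 1 in chondrocyte-lineage cells (*Hoxa11*), 2 in mural cells and 2 by injury in either fit (*Hoxa9*, *Hoxc9*). With cells given to the nearest class profile, 2 were called in FLS, 1 each in *Prg4*+ *Clic5*-low, *Dpp4*+, tenocyte-lineage, chondrocyte-lineage and mural cells, and 0 by injury in Tom+ cells. With the depth-scaled gate, 1 each was called in FLS (*Hoxa9*), *Dpp4*+, tenocyte-lineage and mural cells, 2 by injury in Tom+ cells and 2 by lineage averaged over states (*Hoxd9*, *Hoxa11*). With stricter cell filters, without the 5% deepest cells and without *Dpp4*+ cells, 2 were called by injury in either fit, and stricter filters gave 2 in mural cells. With at least 20 cells per library, 1 was called in *Dpp4*+ and 3 in mural cells. In Tom+ libraries alone, 1 was called in *Dpp4*+ (*Hoxd9*) and 1 in *Lrrc15*+ cells (*Hoxa11*), and without matching libraries 1 in *Lrrc15*+ cells. DESeq2 called 0 by injury averaged over lineages. With the layout of the gene list as a block, 2 were called by injury in Tom+ cells, *Hoxd9* and *Hoxa10* in place of *Hoxa9*, and 3 by lineage averaged over states. At 20 CPM, 27 gene and class pairs were on, against 44 at 10.

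With 1 library left out, the count ran from 0 to 1 in FLS, *Dpp4*+ cells, lineage in *Lrrc15*+ cells and lineage in steady state, from 2 to 3 in *Lrrc15*+ cells, from 0 to 3 in mural cells and lineage averaged over states, and from 0 to 2 for injury in either fit. In the injury average *Hoxa9* missed the threshold without Tom+ steady-state library 1 or Tom-GFP+ injured library 1.

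The samples share replicate numbers but nothing says that a number marks 1 animal, and with 2 pairs each the correlations of their deviations were 0.162 and 0.108 between sorts after injury and 0.041 and 0.107 between states of Tom+. With the replicate number as a block, 0 *Hox* genes were called by lineage in *Lrrc15*+ cells (*Hoxb2* -3.55, edgeR adjusted p = 0.0552), and *Hoxa9* stayed called by injury in Tom+ cells (-1.05, adjusted p = 0.0448).

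Stricter gates or cell minimums left no test for *Prg4*+ *Clic5*-low, tenocyte-lineage or chondrocyte-lineage cells in 6 settings, and comparisons that need the single Tom-GFP+ steady-state library could not be run without it. Depth limits the mural and skeletal classes and the 16 genes with 1 to 50 UMIs, of which *Hoxd11* in FLS, with no filter on low counts, was the 1 called under any setting run.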
